A study of Rattus norvegicus with 10 samples.

Results

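Imprinted genes are read from only 1 of the parental copies in at least some tissues. Here 40 of them were followed in testes of rats on postnatal day 6. The list was set by gene name, and every probe of the array whose RefSeq transcript belongs to a listed gene was taken. The array held 41 such probes for 32 of the 40 genes, out of 30367 probes and 15154 named genes in all. For 37 of these probes, from 29 genes, the signal was well above background on at least 5 of the 10 arrays, and these were tested, among 21892 tested probes. By their known direction of imprinting, mostly from the mouse, 18 of the listed genes are paternally expressed and 22 maternally expressed. Of the paternally expressed genes 12 were tested with 15 probes, and of the maternally expressed genes 17 with 22 probes.

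The pups were male offspring of Brown Norway fathers and Sprague Dawley mothers. The fathers had been given saline (n = 5) or BEP (n = 5) over 9 weeks and then had 9 weeks of recovery. The labels leave BEP unexplained; it commonly stands for bleomycin, etoposide and cisplatin, a treatment of testicular cancer. Each of 10 one-colour arrays carries the code of 1 sire, with the letter C on 5 and T on 5; C is read here as saline and T as BEP, an inference that no label states. The arrays are called C1 to C5 and T1 to T5. The number of pups behind each array is not stated in these sources, and nothing but the sire code says that arrays came from separate litters, so the tests measure the spread between these arrays.

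Imprints are DNA methylation marks set differently in the egg and the sperm and kept in body cells after fertilization. In the male germ line they are erased in the embryo and set anew in the paternal pattern before and around birth, so germ cells of the young testis carry other marks than the somatic cells around them. Many paternally expressed genes promote growth and many maternally expressed genes restrain it: Igf2 is a growth factor of the fetus, H19 a non-coding RNA made next to it from the maternal copy, and Cdkn1c an inhibitor of the cell cycle. These arrays measure the sum of both copies and cannot tell the parental alleles apart. Whether each listed gene is imprinted in this testis was therefore not tested.

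RefSeq promoter windows, from 250 bases before to 50 bases after a gene's start on the GRCr8 build, were found for 33 of the 40 genes (36 windows). Those of Igf2, Dlk1 and Plagl1 are shown because their levels went together from array to array, and those of Ppp1r9a and Zim1 because they had the largest differences between the groups among probes well above background on all arrays. CpG sites, the kind of site that imprints methylate, are in capitals. The windows were placed by gene starts, not by known imprint marks, and methylation was not measured. The Igf2 window is chr1:207253931-207254230 on the minus strand, 1 of 2 windows of this gene. The others are on the plus strand: Dlk1 at chr6:134192347-134192646, Plagl1 at chr1:9297214-9297513, Ppp1r9a at chr4:33988577-33988876 and Zim1 at chr1:76164958-76165257.
Igf2: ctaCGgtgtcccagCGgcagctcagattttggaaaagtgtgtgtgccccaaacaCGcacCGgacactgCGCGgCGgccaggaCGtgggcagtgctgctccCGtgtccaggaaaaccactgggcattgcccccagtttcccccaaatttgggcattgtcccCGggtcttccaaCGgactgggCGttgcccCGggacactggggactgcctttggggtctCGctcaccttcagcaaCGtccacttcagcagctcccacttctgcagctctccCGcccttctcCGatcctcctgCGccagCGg
Dlk1: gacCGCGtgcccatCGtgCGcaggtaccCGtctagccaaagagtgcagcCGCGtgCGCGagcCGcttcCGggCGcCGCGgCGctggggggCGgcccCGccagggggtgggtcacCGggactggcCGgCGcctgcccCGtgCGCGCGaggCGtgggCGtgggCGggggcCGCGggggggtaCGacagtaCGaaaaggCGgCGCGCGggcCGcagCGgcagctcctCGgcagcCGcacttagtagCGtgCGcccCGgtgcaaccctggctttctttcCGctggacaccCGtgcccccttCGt
Plagl1: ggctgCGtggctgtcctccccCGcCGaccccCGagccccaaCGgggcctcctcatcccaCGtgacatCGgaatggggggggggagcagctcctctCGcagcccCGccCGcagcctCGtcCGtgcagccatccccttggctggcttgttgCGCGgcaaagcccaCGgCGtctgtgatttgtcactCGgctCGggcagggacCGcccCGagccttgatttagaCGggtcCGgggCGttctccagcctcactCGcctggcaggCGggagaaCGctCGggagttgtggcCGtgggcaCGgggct
Ppp1r9a: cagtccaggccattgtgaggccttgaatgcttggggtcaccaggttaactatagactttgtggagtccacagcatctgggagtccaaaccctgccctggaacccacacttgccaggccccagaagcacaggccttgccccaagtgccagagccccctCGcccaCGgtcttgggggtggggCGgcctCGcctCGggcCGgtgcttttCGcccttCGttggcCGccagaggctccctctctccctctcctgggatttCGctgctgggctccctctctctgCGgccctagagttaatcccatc
Zim1: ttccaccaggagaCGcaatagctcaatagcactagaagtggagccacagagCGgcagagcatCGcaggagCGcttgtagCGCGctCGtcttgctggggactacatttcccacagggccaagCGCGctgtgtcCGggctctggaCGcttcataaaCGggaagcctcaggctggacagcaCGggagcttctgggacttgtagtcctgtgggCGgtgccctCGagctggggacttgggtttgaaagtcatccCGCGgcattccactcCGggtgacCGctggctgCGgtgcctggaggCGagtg
The window of Dlk1, which codes for a membrane-bound Notch-like ligand, held 45 CpG sites, the most of the 36 windows. Plagl1, a zinc finger transcription factor, had 29, Zim1 had 21, the Igf2 window shown had 19 and Ppp1r9a had 11. The median was 16.5 CpG sites over the 36 imprinted windows, 15.5 for paternally and 18 for maternally expressed genes, against 7 over all 33469 windows of the table. The letters TGCCGC, which the imprint-keeping protein ZFP57 binds when methylated, were searched on both strands. They were in 12 of the 36 imprinted windows (33.33%), against 11.69% of all windows. Of the 9693 windows of all genes with at least 16.5 CpG sites, 27.11% had these letters. That share is not matched to the 36 imprinted windows, which include windows with fewer CpG sites. By class the letters were in 7 of 16 windows of paternally and 5 of 20 of maternally expressed genes. Zim1 had 2 matches, Igf2, Dlk1 and Plagl1 had 1 each, and Ppp1r9a had 0. The windows of Sgce and Peg10, a neighbouring pair of paternally expressed genes, share 263 bases and are not independent.

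On C1 the 75th percentile of the spots was lowest, at 1525 signal units, on C3 it was highest, at 2686, and 70.5% to 74.8% of the probes of an array were well above background. Levels below are log2 of the signal over that percentile, so a level of 0 is the 75th percentile itself, and levels of different probes are not compared. The arrays lay on 2 slides, C1, C2, C3, T1 and T2 on slide 1 and C4, C5, T3, T4 and T5 on slide 2. Slide 2 differed from slide 1 in 2143 probes, 9.79% of those tested, by limma's adjusted p below 0.05, and in 1 of the 37 imprinted probes, the dimmer Kcnq1 probe (-0.46, adjusted p = 0.0025). Testis markers were well measured, with 9 of 10 Sertoli, 6 of 7 Leydig and 9 of 10 germ cell markers tested. All 9 tested germ cell markers had a higher mean in T, against 46.1% of all tested genes. In limma 3 of the 9 had an unadjusted p below 0.05, and 0 passed adjustment. Of all tested probes, 1.59% were higher in T at an unadjusted p below 0.05. The summed signal of the germ cell markers, in multiples of the 75th percentile, was 20.7 to 23.3 on the C arrays and 22.3 to 26.1 on the T arrays. Of the Sertoli markers 7 of 9 had a lower mean in T, with summed signals of 38.7 to 44.0 in C and 34.4 to 42.9 in T. Higher in T were 3 of 3 erythroid, 3 of 4 endothelium, 4 of 6 Leydig, 4 of 6 skeletal muscle and 4 of 5 duct epithelium markers. So were 5 of 9 peritubular and stroma and 2 of 5 macrophage markers. In limma 2 endothelium and 1 skeletal muscle marker were higher in T at an unadjusted p below 0.05, and 1 Sertoli marker lower. The part of these shifts in the values of imprinted genes was not tested.

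No imprinted gene differed between T and C after adjustment over all probes. In limma 0 of the 37 imprinted probes had an adjusted p below 0.05, and so had 0 of all 21892 (0%); the lowest adjusted p over all probes was 0.999. An unadjusted p below 0.05 was found for 4 imprinted probes (10.8%), against 869 of all probes (3.97%). Lower in T were 3 of them, the brighter Nnat probe, Ppp1r9a and the brighter Zim1 probe (8.11%, against 2.38% of all probes), and higher in T was 1, Phlda2 (2.7%, against 1.59%). The values of the 5 C and 5 T arrays did not overlap for 1 imprinted probe, that of Ppp1r9a (2.7%, against 0.722% of all probes measured on every array). In whole testis, fewer cells of a type and less RNA per cell cannot be told apart.

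Intervals set a limit on what could have been missed. The 95% interval of the difference lay within a 1.5-fold change either way for 33 of the 37 imprinted probes and within a 2-fold change for all 37. Its median half-width was 0.23 on the log2 scale, and 0.22 over all tested probes. The exceptions at 1.5-fold were Dlk1, Nap1l5, the dimmer Copg2 probe and the brighter Zim1 probe.

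**Figure D1:**
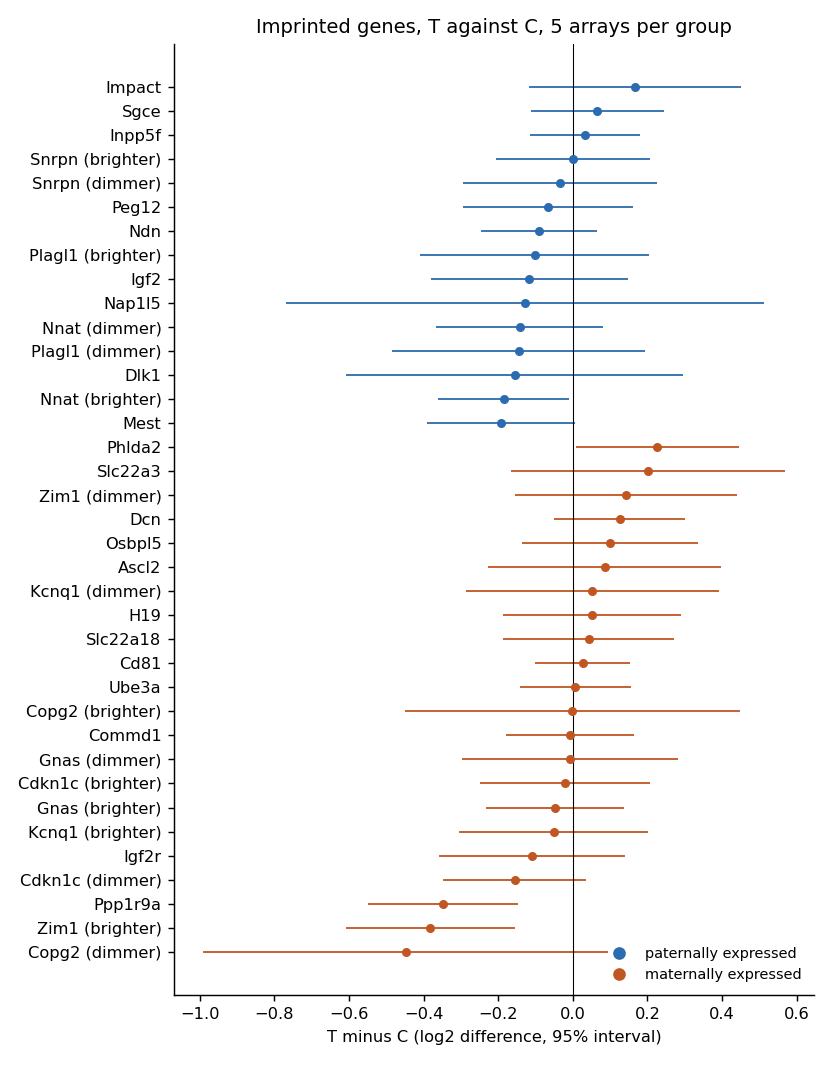
Difference T minus C on the log2 scale (horizontal axis) for each of the 37 tested probes of imprinted genes (rows), paternally expressed in blue and maternally expressed in orange; points are the difference of the means of 5 arrays each and bars the 95% interval. Where a gene has a pair of tested probes they are marked as brighter and dimmer. For 33 of the 37 probes the interval holds 0, and the 4 others are Nnat (brighter), Phlda2, Ppp1r9a and Zim1 (brighter).

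Paternally expressed genes stood on balance slightly lower in T, and maternally expressed genes on neither side. With the brightest probe for each gene, the median difference of the 12 paternally expressed genes was -0.096 (range -0.19 to 0.17), with 4 genes higher and 8 lower. The median of the 17 maternally expressed genes was 0.0066 (range -0.38 to 0.23), with 9 higher and 8 lower. Over all 11561 tested genes the median was -0.0089, and 46.1% were higher in T. The paternal median rested on 1 array, since without C1 it was -0.0069. Within slide 1 it was -0.061 and within slide 2 -0.021, while the maternal median was 0.030 within each slide. On single arrays, the median deviation of the paternally expressed genes from their own means was 0.19, 0.021, 0.023, 0.068 and -0.12 on C1 to C5 and -0.038, 0.0054, -0.071, -0.14 and 0.025 on T1 to T5. The groups overlap, with C1 the highest array and T4 and C5 the lowest. For the maternally expressed genes the median deviation was highest on T5, at 0.16, and lowest on C3, at -0.061.

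Ppp1r9a codes for neurabin, a scaffold that ties protein phosphatase 1 to actin, and lies on chromosome 4 beside the Sgce and Peg10 cluster. Its levels were -1.07, -1.11, -1.42, -1.22 and -1.19 on C1 to C5 and -1.43, -1.43, -1.46, -1.74 and -1.68 on T1 to T5. Every T array lay below every C array, though C3 came close to the 3 highest T arrays. The difference was -0.35 (SE 0.090, 95% interval -0.55 to -0.15), 1.27-fold lower in T with n = 5 a group, and did not pass adjustment (limma adjusted p = 0.999). It was -0.23 within slide 1, -0.42 within slide 2, and ran from -0.42 to -0.23 over the 25 alternatives. Since the groups do not overlap, leaving out an array or taking 1 slide alone could not turn its sign. The neighbour Sgce, which codes for epsilon-sarcoglycan and is paternally expressed, had 2.26 ± 0.11 (SD, n = 5) in C and 2.33 ± 0.13 in T, a difference of 0.065 (95% interval -0.11 to 0.24).

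Zim1, a maternally expressed zinc finger gene of the Peg3 cluster, had probes whose differences were of opposite sign. The brighter probe gave -3.98, -3.98, -4.45, -4.13 and -4.15 on C1 to C5 and -4.62, -4.42, -4.72, -4.42 and -4.43 on T1 to T5. Only C3 reached into the range of the T arrays. The difference was -0.38 (SE 0.103, 95% interval -0.61 to -0.15), 1.30-fold lower in T, and it was -0.38 within each slide. The dimmer probe was above background on only 3 arrays of each group and gave -6.41, -6.59, -6.14, -6.71 and -6.40 in C and -6.62, -6.28, -6.43, -6.25 and -5.96 in T. There the groups overlap, and the difference was 0.14 (95% interval -0.15 to 0.44). With the mean of both probes, the difference for Zim1 was -0.12. Of its cluster, Peg3 has no probe, and Usp29 was above background on 1 C array only.

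Nnat, a paternally expressed gene for a small membrane protein of developing neural and endocrine cells, had a pair of probes of one sign. The brighter gave 2.22, 1.94, 2.17, 2.05 and 1.89 on C1 to C5 and 2.02, 1.86, 1.78, 1.82 and 1.87 on T1 to T5. Apart from T1, the T arrays lay below every C array. The difference was -0.19 (95% interval -0.36 to -0.0099), and that of the dimmer probe was -0.14 (95% interval -0.37 to 0.081), with levels of -3.52 to -3.00 in C and -3.59 to -3.36 in T. The brighter probe was at -0.17 within slide 1 and -0.15 within slide 2.

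Phlda2, a maternally expressed gene that restrains placental growth, was dim. Its tested probe, above background on 4 C and 5 T arrays, gave -6.28, -5.98, -5.79, -6.18 and -5.89 in C and -5.89, -5.68, -5.86, -5.86 and -5.71 in T. The C arrays spread over a wider range, and the groups overlap. The difference was 0.23 (95% interval 0.0089 to 0.44), 0.23 within each slide, and 0.091 with another background correction, normexp. A further Phlda2 probe was above background on 0 arrays and was not tested.

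**Figure D2:**
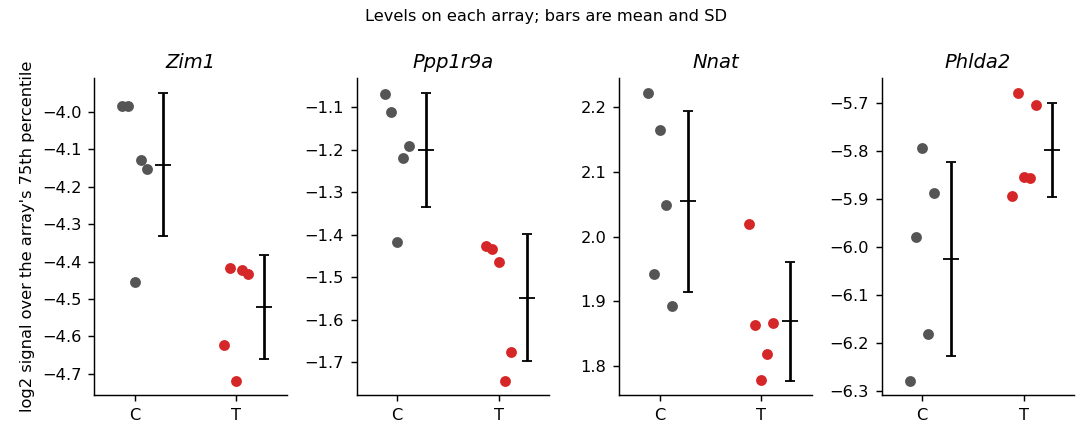
Level on each array (vertical axis, log2 signal over the array's 75th percentile; each panel has its own scale) for the probes of Zim1, Ppp1r9a, Nnat and Phlda2 with an unadjusted p below 0.05, 5 C arrays in grey and 5 T arrays in red, with mean and SD beside them. For Ppp1r9a the lowest C array is at -1.42 and the highest T array at -1.43; in the other 3 panels the groups overlap.

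The genes of the Igf2 and H19 domain on chromosome 1 did not differ beyond their spread. Igf2 gave 3.23, 3.01, 2.80, 3.07 and 2.69 on C1 to C5 and 2.89, 2.80, 2.71, 2.68 and 3.14 on T1 to T5. The groups overlap over most of their range, with C1 and T5 highest. The difference was -0.12 (SE 0.12, 95% interval -0.38 to 0.15). H19 gave 4.19, 3.95, 3.71, 4.10 and 3.81 in C and 3.93, 4.13, 3.93, 3.83 and 4.21 in T, again with C1 and T5 at the top. Its difference was 0.052 (95% interval -0.19 to 0.29). Igf2r, the maternally expressed receptor that clears IGF2, gave 3.22, 3.19, 3.25, 3.36 and 3.24 in C and 3.08, 2.72, 3.32, 3.23 and 3.35 in T. T2 stood apart at the low end, and the difference was -0.11 (95% interval -0.36 to 0.14), at -0.32 within slide 1, which holds T2, and 0.0025 within slide 2.

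Dlk1 had one of the wider spreads between arrays of a group. It gave -0.25, -0.94, -0.80, -0.81 and -1.35 on C1 to C5 and -1.10, -0.95, -1.25, -1.19 and -0.44 on T1 to T5. C1 and T5 lay far above the rest, C5 was lowest, and the groups overlap throughout. The difference was -0.16 (SE 0.204, 95% interval -0.61 to 0.30), and it turned with the slide: -0.36 within slide 1 and 0.12 within slide 2. Its cluster also holds the non-coding RNA Meg3 and the retrotransposon-derived gene Rtl1, and neither has a probe.

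Of the growth regulators, Cdkn1c had a pair of probes. The brighter gave 1.70, 1.72, 1.60, 1.72 and 1.43 in C and 1.55, 1.47, 1.51, 1.56 and 1.97 in T, a difference of -0.021 (95% interval -0.25 to 0.21). The dimmer gave 0.49, 0.36, 0.33, 0.51 and 0.18 in C and 0.20, 0.10, 0.16, 0.19 and 0.45 in T, a difference of -0.16 (95% interval -0.35 to 0.037). On both, T5 stood well above the other T arrays, and C5 was the lowest C array. Plagl1 gave 0.89, 0.24, 0.26, 0.51 and 0.14 in C and 0.33, 0.41, 0.36, 0.051 and 0.38 in T with its brighter probe, a difference of -0.10 (95% interval -0.41 to 0.20). C1 was far above the others, and the dimmer probe differed by -0.14. Grb10, a brake on insulin and IGF signalling, has no probe.

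Mest, a paternally expressed gene of the hydrolase family, came close to the limit. It gave 1.34, 1.33, 1.50, 1.40 and 1.07 on C1 to C5 and 1.17, 1.27, 1.18, 0.95 and 1.12 on T1 to T5. Apart from C5, the C arrays lay above every T array. The difference was -0.19 (SE 0.0896, 95% interval -0.39 to 0.0068), -0.17 within slide 1 and -0.15 within slide 2. Copg2, a coat protein gene that overlaps Mest, gave -1.47, -1.48, -1.51, -1.59 and -1.60 in C and -1.26, -2.31, -1.57, -1.57 and -0.95 in T with its brighter probe, a difference of -0.0015. The C arrays were nearly alike while T2 was far below and T5 far above them. The dimmer Copg2 probe, above background on 4 arrays of each group, gave -6.64, -6.06, -5.80, -5.05 and -6.33 in C and -6.40, -6.44, -6.52, -6.56 and -6.21 in T. It differed by -0.45 (95% interval -0.99 to 0.095), the largest difference among the imprinted probes, with C4 far above the other arrays.

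Of the Prader-Willi region on chromosome 1, Snrpn, Ndn, Peg12 and Ube3a were tested. Snrpn, which codes for a splicing protein, gave 0.51, 0.058, 0.13, 0.14 and -0.0016 in C and 0.17, 0.24, 0.23, 0.069 and 0.13 in T, with C1 above all others. Its difference was 0.0010 with the brighter and -0.033 with the dimmer probe. Ndn, a growth suppressor, gave 4.10, 4.14, 4.05, 4.06 and 3.98 in C and 4.11, 4.07, 3.93, 3.80 and 3.97 in T, a difference of -0.090 (95% interval -0.24 to 0.064), with T4 lowest. Peg12 had a mean of -4.63 ± 0.22 in C and -4.70 ± 0.10 in T. Ube3a, the maternally expressed ubiquitin ligase of Angelman syndrome, had 0.28 ± 0.13 in C and 0.29 ± 0.03 in T. Magel2 and Mkrn3 have no probe.

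Among the remaining paternally expressed genes, Impact, a regulator of translation, gave 1.19, 1.22, 1.54, 1.48 and 1.74 in C and 1.40, 1.53, 1.43, 1.87 and 1.78 in T. The groups overlap, and the difference was 0.17 (95% interval -0.12 to 0.45). Inpp5f differed by 0.033. Nap1l5, above background on 4 arrays of each group, had the widest spread of the imprinted probes, a within-group SD of 0.52, and differed by -0.13 (95% interval -0.77 to 0.51). The median within-group SD was 0.17 over the 37 imprinted probes and 0.16 over all tested probes.

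Phlda2 (0.23) and its neighbour Cdkn1c (-0.021 and -0.16), given above, belong to the Kcnq1 domain on chromosome 1. Among its other maternally expressed genes, the 2 probes of the potassium channel gene Kcnq1 differed by -0.051 and 0.052. The difference was 0.085 for Ascl2, a transcription factor of the placenta, 0.10 for Osbpl5, 0.042 for Slc22a18 and 0.026 for the tetraspanin Cd81. Tspan32 of that domain has no probe. Gnas, the stimulatory G protein subunit, differed by -0.048 with its brighter and -0.0085 with its dimmer probe. Slc22a3, a cation transporter next to Igf2r, had -6.03 ± 0.19 in C and -5.83 ± 0.36 in T, with T5 high at -5.25. Commd1 differed by -0.0076 and Dcn, the matrix proteoglycan decorin, by 0.13 (95% interval -0.05 to 0.30). All of these had overlapping groups. Asb4 was above background on 1 T array and Calcr on 0, and neither was tested; Peg10 has no probe.

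Of the 8 genes with a pair of tested probes, both probes had the same sign for 5. The exceptions were Zim1, Kcnq1 and Snrpn.

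Levels of Igf2 went together with those of other imprinted genes from array to array. Of 18 listed pairs, 10 had both genes tested, and their deviations from the group means were correlated over the 10 arrays, with two-sided permutation p-values from 100000 resamples, adjusted over the 10 pairs. For Igf2 and its neighbour H19, r was 0.860 (adjusted p = 0.0074) and rho 0.903 (adjusted p = 0.0076). For Igf2 and Dlk1, on another chromosome, r was 0.886 (adjusted p = 0.0074) and rho 0.733 (adjusted p = 0.068). For Igf2 and Cdkn1c, r was 0.822 (adjusted p = 0.0074) and rho 0.770 (adjusted p = 0.059). For Igf2 and Plagl1, r was 0.743 (adjusted p = 0.029) and rho 0.709 (adjusted p = 0.068). So 4 pairs passed by r and 1 by rho, and since all 4 share Igf2 they are not independent. The pairs were listed with earlier results of these data known. Their permutation p-values therefore describe these arrays and are not error rates.

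The other 6 pairs did not pass. They were Mest and Copg2 (r = -0.202), Ndn and Snrpn (0.349), Cdkn1c and Phlda2 (-0.148), Igf2r and Slc22a3 (0.060), Igf2 and Igf2r (0.144), and Igf2 and Mest (0.310). Their adjusted permutation p-values of r ran from 0.630 to 0.859.

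The deviations show on which arrays the genes of the 4 relations stood high or low. For Igf2 they were 0.28, 0.046, -0.16, 0.11 and -0.27 on C1 to C5 and 0.044, -0.045, -0.13, -0.16 and 0.29 on T1 to T5. Dlk1 deviated by 0.58 on C1, 0.55 on T5 and -0.52 on C5, and by at most 0.27 either way on the other arrays. H19 was likewise highest on C1 and T5, at 0.24 and 0.20. Cdkn1c was highest on T5, at 0.36, and Plagl1 on C1, at 0.49. Not all of these genes went together closely. Among the pairs without Igf2, r was 0.313 for Cdkn1c and Plagl1, 0.580 for Cdkn1c and H19, and 0.75 to 0.79 for the others. Plagl1 followed Snrpn, not among the listed pairs, more closely, at 0.932.

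**Figure D3:**
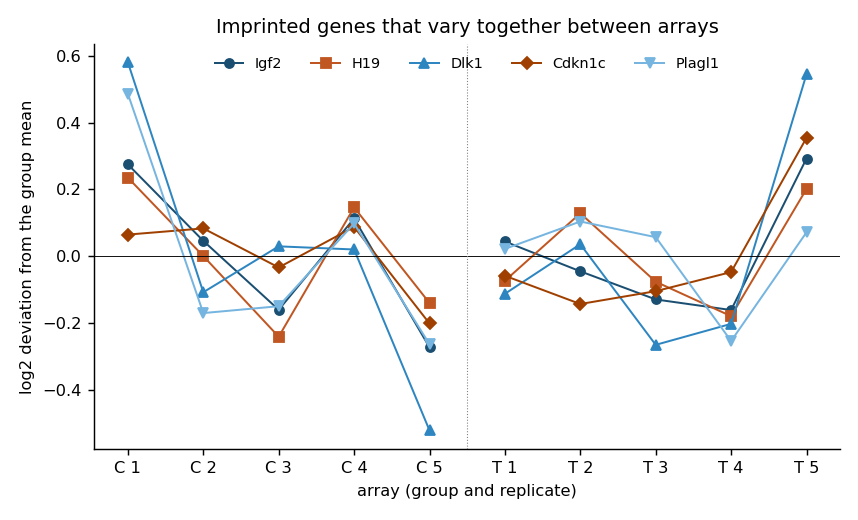
Deviation of the level from its group mean (vertical axis, log2) on each of the 10 arrays (horizontal axis, C arrays left and T arrays right of the dotted line) for Igf2, H19, Dlk1, Cdkn1c and Plagl1, 1 line per gene. All 5 genes are above their group mean on C1, C4 and T5 and below it on C5 and T4.

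C1 and T5 were the arrays farthest from the median in Igf2. Without them r was 0.720 for H19, 0.660 for Dlk1, 0.746 for Cdkn1c and 0.621 for Plagl1 over 8 arrays. Exact permutation p was 0.049, 0.070, 0.036 and 0.099, each with an adjusted p of 0.197, so these pairs did not pass. The adjustment was over all 10 pairs, each without the 2 arrays farthest in its own first gene, and no pair passed. The calls thus did not hold without C1 and T5. Fewer arrays and a narrower range of Igf2 can also raise p. Whether the calls rest on C1 and T5 in particular was not tested. With single arrays left out, the first 3 pairs passed by r each time, while Igf2 and Plagl1 did not pass without C1 (0.618), C3 (0.723), C5 (0.669) or T4 (0.708). That pair also did not pass with quantile normalization (0.661), scaling on the median (0.670) or the authors' values (0.704). A slide holds 5 arrays, too few for a correlation of its own. With the means of group and slide both taken out, r was 0.865, 0.884, 0.864 and 0.733 for H19, Dlk1, Cdkn1c and Plagl1.

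The share of all genes that followed Igf2 as closely was lowest for Dlk1 and highest for Plagl1. An r with Igf2 at least as high as that of Dlk1 was found for 0.182% of 11557 genes, of H19 for 0.407%, of Cdkn1c for 0.839% and of Plagl1 for 2.46%. Over all gene pairs, an r at least that high was found for 0.371%, 0.622%, 1.15% and 2.875%, in the same order. The second probe of Cdkn1c gave 0.886 with Igf2 and that of Plagl1 0.713. Imprinted genes as a whole did not form a tight group: over the 406 pairs of the 29 tested genes the median r was 0.084, against 0.029 over all gene pairs, and 3.94% of pairs had an r of at least 0.74, against 2.96%. These shares describe the same 10 arrays, and genes are not independent replicates.

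**Figure D4:**
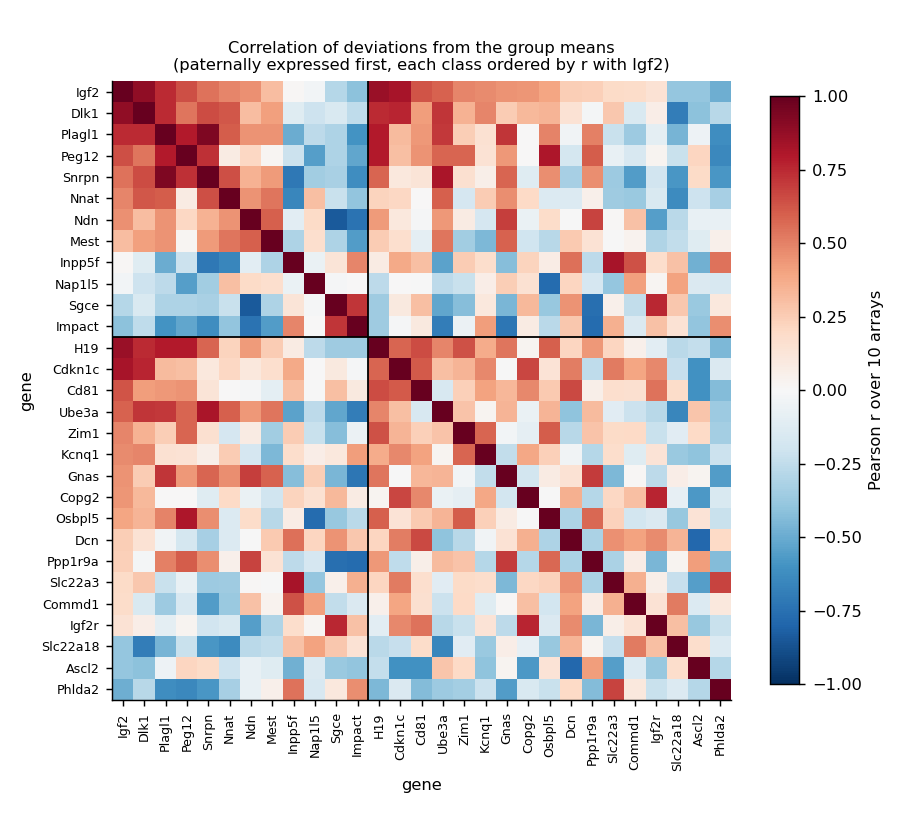
Pearson r of the deviations from the group means over 10 arrays for each pair of the 29 tested genes (both axes, 1 brightest probe per gene), from -1 in blue to 1 in red, paternally expressed genes first and each class ordered by its r with Igf2; black lines part the classes. Igf2, Dlk1, Plagl1, Peg12 and Snrpn form a red corner, and H19, first past the black line, is red against them. Inpp5f, Sgce and Impact are pale or blue against these genes.

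Marker lists of cell types were set against Igf2 on the same arrays, and no relation passed adjustment. The mean deviation of the peritubular and stroma markers, without Dcn, had an r of 0.714 with Igf2 (rho 0.685, adjusted permutation p = 0.084 over 11 relations), and that of the endothelium markers 0.735 (rho 0.697, adjusted p = 0.084). For the germ cell markers r was -0.663 (rho -0.697, adjusted p = 0.125), and for the log2 of the 75th percentile signal -0.574 (rho -0.612, adjusted p = 0.229). Sertoli markers gave 0.091 and Leydig markers 0.401. These measures were chosen after the correlations of Igf2 had been seen, and their part in the correlations among imprinted genes was not tested.

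The factors that set, keep or erase imprints stood near 0. Of 23 listed, 15 had a probe and 14 were tested, and 5 were higher and 9 lower in T, 0 with an unadjusted p below 0.05, with a median of -0.019. The de novo methyltransferase Dnmt3a differed by -0.073, its partner Dnmt3l by 0.20 (SE 0.410), the imprint protector Zfp57 by -0.040, its corepressor Trim28 by -0.13 and the insulator protein Ctcf by -0.017. Of 28 further imprinted genes, 20 had a probe and 15 were tested. In T 11 were higher and 4 lower, with a median of 0.031. Of these, Ampd3 had an unadjusted p below 0.05, at 0.19 (SE 0.0798), and did not pass adjustment. For comparison, 46.1% of all tested genes were higher in T. In limma 3.97% of all tested probes had an unadjusted p below 0.05.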

How the data were processed

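RNA of 10 testis samples was hybridised to one-colour arrays. Per the file headers, the deposited scanner files hold spot intensities from version 10.7.3.1 of Agilent Feature Extraction (the submitters' processing notes name 10.7), background-subtracted and not scaled between arrays. The authors' value table holds log2 values for 21220 probes. Set against the probe-centred scanner values it gave r of 0.998 to 0.999 and slopes near 1, so each probe was centred and a higher value means more signal. Its scaling between arrays stays unknown, its column medians were 0.029, 0.00025, -0.017, 0.020 and -0.0091 for C and 0.0033, 0.0038, -0.0027, -0.017 and -0.0025 for T, and it served as an alternative.

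Of 62976 spots per array, 4259 controls were left out. The processed signal was taken to log2 and the array's 75th percentile subtracted. Outlier spots (494 to 745 on an array) became missing values, and no spot, 0 on each array, was saturated. A probe's spots were averaged, and probes well above background on at least 5 of 10 arrays were kept. Array pairs correlated at 0.990 to 0.997, so none was a copy. Transcript accessions were matched to the RefSeq table of GRCr8, which named 17998 of 30367 probes; probes carry no coordinates here. The T minus C test was limma 3.58.1 under R 4.3.3 (lmFit, eBayes, two-sided, no covariate), with Benjamini-Hochberg adjustment over all tested probes. The brightest tested probe stood for a gene in lists and correlations. The tests were checked on simulated data. Correlations were permuted over all arrays without regard to group, though group means had been removed. Their p-values are therefore approximate, also where every order was counted.

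Members, classes, pairs and lists were chosen with earlier results of these data known. Values on every array are given for members with an unadjusted p below 0.05 or non-overlapping groups, the 3 largest differences in each class and a panel of 13 genes. Normexp (offset 50) used the median spot signal in place of the mean. The other alternatives were quantile and median scaling, filters, outlier spots kept, the authors' values, slide and sire codes as blocks, each slide alone, variance models, array weights, the mean of a gene's probes and each array left out.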

Additional observations from a re-analysis of the deposited data

Results flagged for a closer look

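In 5 of 74 groups of 5 arrays (37 probes, C and T), 1 array lay apart from the other 4 by Dixon's criterion, and chance gives about 1 in 20, or 3.7. On the log2 scale used above, T4 was low for the dimmer Nnat probe, at -3.59, with the other T arrays between -3.42 and -3.36. It was also low for the brighter Plagl1 probe, at 0.051, against 0.33 to 0.41. C1 was high for the brighter Snrpn probe, at 0.51, against -0.0016 to 0.14 on the other C arrays. T5 was high for both Cdkn1c probes, at 0.45 against 0.10 to 0.20 for the dimmer and at 1.97 against 1.47 to 1.56 for the brighter. Both Cdkn1c probes measure the same gene on the same array, so they count as 1 observation.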

How the results depend on the processing

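No imprinted probe passed limma's adjusted p of 0.05 under any alternative, and 15 of 37 kept the sign of their difference in all alternatives run for them (at most 25). The number of imprinted probes with an unadjusted p below 0.05, 4 in the report, was 0 within slide 1, 2 within slide 2, 2 with the sire number as a replicate block, 2 with the second number of the sire code as a block and 2 with the mean of a gene's probes. With single arrays left out it ran from 2 (without T3 or T4) to 6 (without C5). Over all probes that count, 869, was 716 within slide 1, 888 within slide 2 and 697 with the sire number block. It was 780 with the second number of the sire code as a block and 740 with the mean of a gene's probes. With normexp it was 481, and with single arrays left out 648 to 1151. With single arrays left out, the paternal median ran from -0.14 to -0.0069 (without C1) and the maternal median from -0.019 to 0.019; over all alternatives the maternal median reached 0.030, within either slide. The pairs that passed by r numbered 3 to 4 with single arrays left out. Without the 2 arrays farthest in the first gene of each pair, C1 and T5 for Igf2, they numbered 0. The causes were not tested.

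For C and T arrays that share a sire number, the correlations of deviations were 0.283, 0.194 and -0.512. These few values differ in sign and were not set against unmatched arrays, so whether sire numbers pair arrays was not tested. Groups of 5 arrays left a median 95% half-width of 0.23 (log2), and dim probes near the background (Nap1l5, Phlda2, Slc22a3 and the dimmer Zim1 and Copg2 probes) bound what can be said of those genes.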
